A study of Rattus norvegicus with 4 samples.

Results

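Complement is a set of plasma and surface proteins that mark particles, microbes and dying cells for uptake. It starts on the classical route, in which C1q binds its target, on the lectin route, or on the alternative route, in which factor B and properdin build on C3 that is already deposited. All routes converge on the cleavage of C3, and surface proteins such as CD55 break up the enzymes that do this on the cells' own membranes. The liver makes most of the circulating proteins, while macrophages are known as a main source of C1q and also make properdin and other components locally.

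The genes described here are 9 components and regulators of complement: C1qa, C1qb and C1qc, C2, C3, Cfb, Cfp, Serping1 and Cd55. They were chosen by name, and every probe was taken whose transcript accession matched one of them, which gave 13 of 45598 probes and 31 of 58717 non-control spots. All 9 were among the 16581 named genes of the array. The cells were NR8383, a line of alveolar macrophages established from the lung lavage of a normal rat, exposed for 4 h to Printex90, a commercial carbon black, at 0.9 cm2/cm2. ALI in the labels is the usual abbreviation of air-liquid interface. RNA of 4 biological replicates was measured, each on its own 1-colour Agilent array, and the labels state that the cells had been through 20 passages. This is 1 line, so nothing here speaks to other macrophages. The untreated cells of the design were not analysed here, so no level below can be read as an effect of the particles or as the lack of one.

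A level is the log2 intensity of a gene's probe after subtraction of the 75th percentile that its array has over all non-control probes, so 0 stands for that percentile. Where a gene has several probes, the one with the highest mean is used. A probe counts as detected on an array if the scanner software marked at least 1 of its spots as well above background, and a gene if any of its probes does. Since each probe has its own response, no gene's level is set against that of another. Each mean rests on 4 arrays, which limits its precision.

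Across the arrays, between 8917 and 9985 named genes were detected. On replicate 4, 28.3% of probes read no higher than the 95th percentile of the negative control spots, the lowest share of the 4 arrays, and on replicate 3 the share was 43.2%, the highest. Of 13 macrophage markers 12 were detected on all 4 arrays, and the exception, Adgre1, on 2. None of 8 hepatocyte markers was detected on any array, among them Alb and Apoa1. One marker each of 8 fibroblast (Dcn), 7 neutrophil (Camp) and 7 epithelial (Elf3) genes was detected on all 4. The fibroblast marker Col1a2 was detected on 3 and the epithelial marker Krt8 on 1. Of all 16581 named genes, 50.8% were detected on all 4 arrays and 6116 on none. All 4 arrays share a slide and a scan.

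The RefSeq tables (GRCr8) place C1qb, C1qc and C1qa next to each other among the protein-coding genes of chromosome 5, and C2 next to Cfb on chromosome 20. Promoters were found there for 5 of the 9 genes. Those of C1qa and C1qb are shown because both genes read highest and lowest on the same arrays. C1qc, which lies between C1qa and C1qb, was highest on replicate 2, and the array order of C1qa and C1qb changed with the processing. That of Cfp is shown because its level, as scaled here, was the steadiest of the group. Each window is the 250 bases before the annotated start, 5′ to 3′ on the gene's strand, and capitals mark GAGGAA or its reverse complement TTCCTC, the core that PU.1, a lineage factor of macrophages, binds in many myeloid promoters.
C1qa, chr5:154419934-154420183, minus strand: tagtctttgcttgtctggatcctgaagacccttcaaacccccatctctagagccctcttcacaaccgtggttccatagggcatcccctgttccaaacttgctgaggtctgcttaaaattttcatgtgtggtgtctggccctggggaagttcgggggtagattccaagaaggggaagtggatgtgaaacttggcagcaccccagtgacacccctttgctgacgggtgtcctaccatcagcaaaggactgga
C1qb, chr5:154407828-154408077, minus strand: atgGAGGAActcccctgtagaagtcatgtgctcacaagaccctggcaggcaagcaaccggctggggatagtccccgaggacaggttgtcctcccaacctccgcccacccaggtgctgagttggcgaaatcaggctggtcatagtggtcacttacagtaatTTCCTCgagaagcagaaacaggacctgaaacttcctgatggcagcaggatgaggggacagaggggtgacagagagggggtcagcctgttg
Cfp, chrX:3715301-3715550, plus strand: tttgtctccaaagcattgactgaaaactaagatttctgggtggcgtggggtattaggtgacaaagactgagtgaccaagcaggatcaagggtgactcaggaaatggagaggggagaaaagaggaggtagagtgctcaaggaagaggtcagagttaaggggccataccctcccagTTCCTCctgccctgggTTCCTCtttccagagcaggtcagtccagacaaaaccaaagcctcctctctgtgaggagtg

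The C1qb and Cfp windows each held 2 matches and the C1qa window none. The windows of C3 and Cd55, which are not shown, held none either, so 2 of the 5 had a match. Of all 33469 promoter windows of this length, 23.3% held at least 1 match on either strand. Searches on both strands for the composite ETS-IRF element, held by 2.48% of windows, and for TTGCNNAA, a form of the C/EBP site held by 9.22%, gave a single match over the 5 windows, to the second motif in that of C3. A match is a run of letters, not a measured binding site. Spi1, the gene of PU.1, was detected on all 4 arrays with a level of 3.20 ± 0.12 (SD, n = 4).

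Of the 9 complement genes, 5 were detected on all 4 arrays: C2, Cfb, Cfp, Serping1 and Cd55. That is 55.6%, close to the 50.8% of all named genes. C1qa was detected on 3 arrays, C1qb on 2, C3 on 1 and C1qc on none. In RNA from whole cultures, fewer expressing cells and less RNA per cell cannot be told apart.

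**Figure D1:**
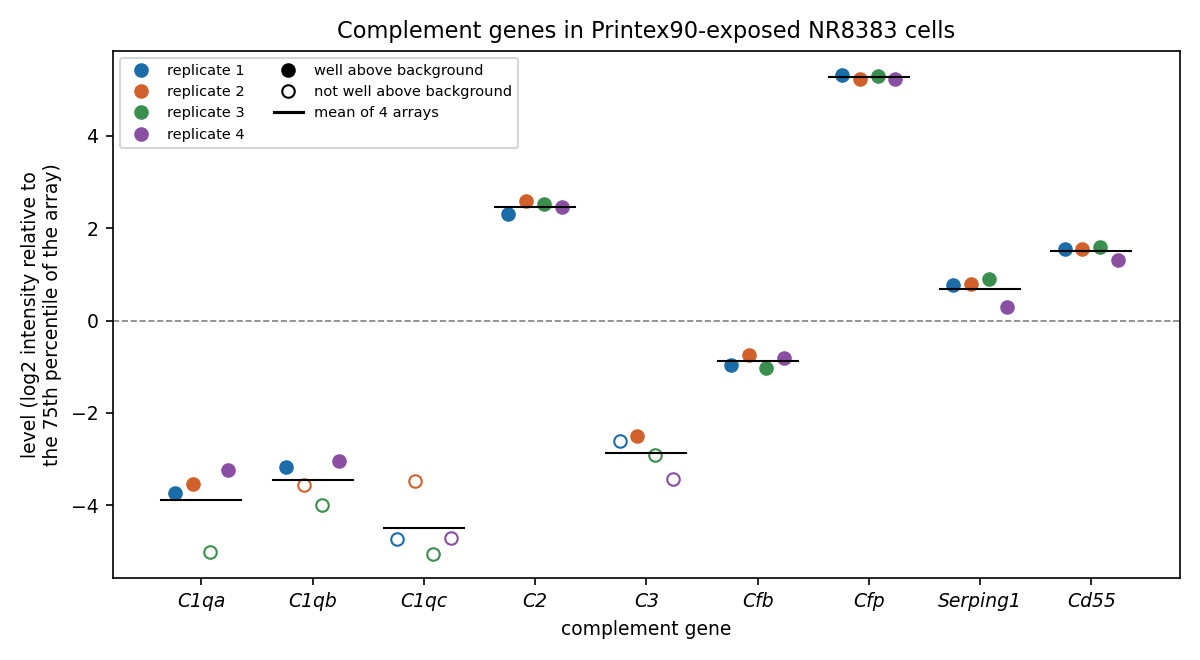
Level (vertical axis, log2 intensity relative to the 75th percentile of the array) of each complement gene on the arrays of replicates 1 to 4, with filled points where the gene was well above background, open points where it was not, and a bar at the mean of the 4 arrays. C2, Cfb, Cfp, Serping1 and Cd55 have 4 filled points each, while C1qc has none.

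The recognition molecule C1q is built from 3 chains, and none of their genes was detected on all 4 arrays. C1qa, the A chain, had levels of -3.72, -3.55, -5.02 and -3.22 on replicates 1 to 4. C1qb, the B chain, had levels of -3.17, -3.56, -4.00 and -3.04. For both, replicate 4 was highest and replicate 3 lowest. Among the 283 probes, these included, that are printed 3 or more times and were not detected on all 4 arrays, 18.4% were highest on replicate 4 and 29.3% lowest on replicate 3.

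C1qc, the C chain, had levels of -4.73, -3.47, -5.05 and -4.72, and its single spot reached intensities of 3.76, 7.55, 3.05 and 4.83. Each of these is below the dimmest spot that the software called well above background on the same array, which had an intensity of 9.33, 9.69, 10.3 and 9.17. Replicate 3 was again the lowest, and replicate 2 the highest.

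The probes of C1qa and C1qb are printed 10 times on each array, so their signal can be judged spot by spot, and the call for a gene with 10 spots has more chances than that for a gene with 1. Of the C1qa spots, 1 of 10, 2 of 10, 0 of 10 and 4 of 9 were well above background on replicates 1 to 4. The C1qb spots gave 2 of 10, 0 of 10, 0 of 10 and 6 of 9. One spot of each probe on replicate 4 was left out because the software flagged it as an outlier.

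Set against the 308 negative control spots, C1qa and C1qb read differently on replicate 3. There the C1qa spots had a median intensity of 3.24 against 3.19 in the negative controls, and 0 of 10 exceeded the 95th percentile of the controls. On replicates 1, 2 and 4, 8 of 10, 10 of 10 and 9 of 9 exceeded it. All C1qb spots exceeded it on each array, with median intensities of 11.6, 7.38, 7.11 and 18.3 against control medians of 2.91, 2.72, 3.19 and 2.85.

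**Figure D2:**
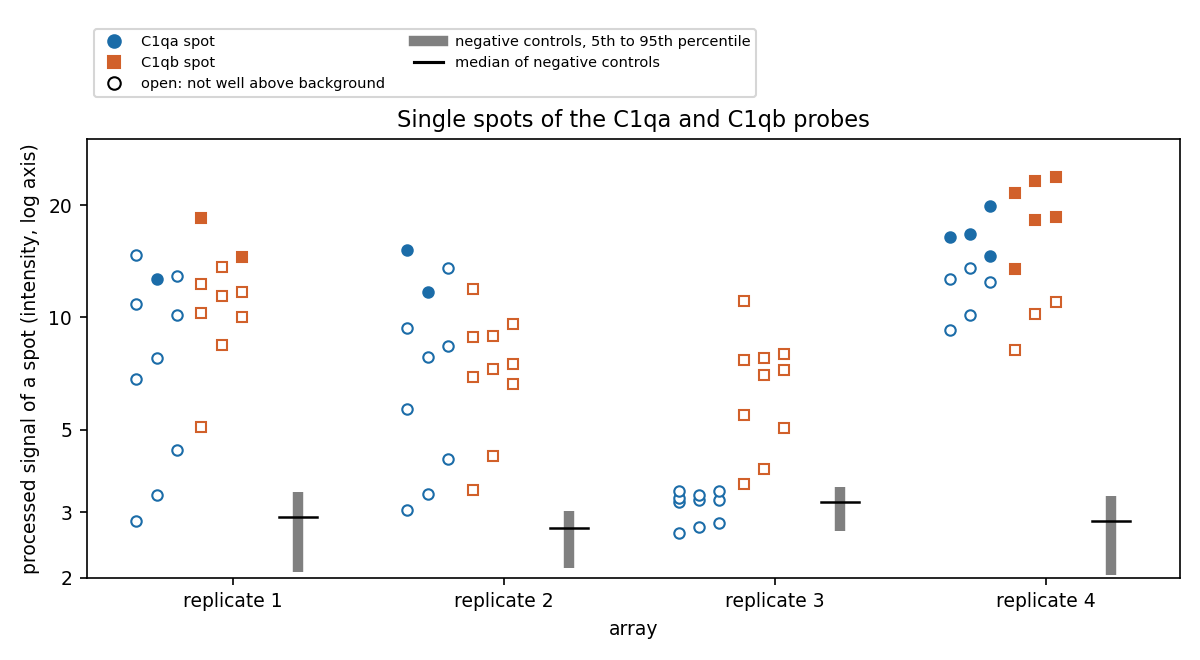
Processed signal (vertical axis, intensity on a log axis) of the single spots of C1qa (circles) and C1qb (squares) on each array, filled where well above background, beside the 5th to 95th percentile (grey bar) and median (line) of the negative controls. On replicate 3 the C1qa spots lie at the height of the grey bar while the C1qb spots lie above it.

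The spot repeats also allow a test between arrays, which compares these arrays and not conditions. Its error is the technical spread between spots of 1 array, without any spread between cultures. In limma's moderated F test over 1350 probes printed 3 or more times, both probes differed between arrays, with an adjusted p of 2.31e-06 for C1qa and 0.00130 for C1qb. This is no mark of the C1q genes, since 82.1% of all such probes passed, as did 64.3% of those not detected on all 4 arrays. Without replicate 3 neither passed (adjusted p = 0.360 for C1qa and 0.117 for C1qb in the same test), while 65.9% of all such probes did. The order of the arrays also depended on the processing: after a normexp background correction replicate 4 was the lowest for both genes, and with the array median as the scale replicate 1 was the highest for C1qb and replicate 2 its lowest. Replicates 3 and 4 are also the arrays with the largest and the smallest share of probes at the level of the negative controls, and the part of this in the C1q order was not tested.

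C2, the protease of the classical and lectin C3 convertase, was detected on every array, with levels of 2.30, 2.59, 2.52 and 2.46 and a mean of 2.47 ± 0.12 (SD, n = 4). Between its lowest and highest array lay a factor of 1.22. C3, the central component, had levels of -2.61, -2.50, -2.90 and -3.43 and was called well above background on replicate 2 alone. Its intensities of 16.3, 14.8, 13.5 and 11.8 exceeded the dimmest called spot of each array. With the software's less strict call, a signal significantly above background, C3, C1qa and C1qb passed on all 4 arrays, which raised the count to 8 of 9 genes against 61.7% of all named genes.

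Besides C3, which all routes share and which was detected on 1 array, the alternative route was represented by 2 genes of the group. Both were detected on every array, as were 50.8% of all named genes. Cfb, whose product is the protease of the alternative C3 convertase, had levels of -0.96, -0.74, -1.02 and -0.80, with a mean of -0.88 ± 0.13 (SD, n = 4). Cfp encodes properdin, which stabilises that enzyme, and had levels of 5.33, 5.23, 5.29 and 5.24, with a mean of 5.27 ± 0.05 (SD, n = 4). With this scaling the Cfp arrays differed by a factor of at most 1.07. The SD of Cfp was above that of only 2.52% of the 8424 genes detected on all 4 arrays. Before scaling, its intensities were 3988, 3135, 3960 and 4799, highest on replicate 4 and lowest on replicate 2, as was the subtracted 75th percentile.

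Serping1 encodes the C1 inhibitor, a secreted serpin that blocks C1r and C1s. Its levels were 0.76, 0.80, 0.89 and 0.30, with a mean of 0.69 ± 0.26 (SD, n = 4), so that replicate 4 stood below the other arrays. Before scaling, its intensities were 169, 146, 188 and 157, lowest on replicate 2. The 75th percentile that was subtracted was highest on replicate 4, at an intensity of 127. The SD of the Serping1 level was the largest among the detected members, above that of 80.1% of all detected genes. The genes whose array pattern lay closest to it, by the root mean square difference of levels centred on their 4-array mean, were Ddrgk1 at 0.016, Dctn2 at 0.026 and Chid1 at 0.030. With only 4 arrays such likeness carries little weight, and 209 of the 8423 genes compared (2.48%) lay within 0.1.

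Cd55, also called decay-accelerating factor, is the membrane regulator of the group and has 5 probes, each printed once. Its level, from the probe A_44_P1162765, was 1.55, 1.55, 1.59 and 1.32, with a mean of 1.50 ± 0.13 (SD, n = 4). Replicate 4 was the lowest for this probe, as for Serping1, and the other 3 arrays lay between 1.55 and 1.59.

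The order of the arrays differed among the other Cd55 probes. A_64_P127808 had levels of -0.63, -0.24, -0.72 and -0.20, with replicate 4 the highest, and A_43_P15222 had levels of -0.70, -1.06, -0.56 and -0.99, with replicate 3 the highest. A_44_P168159 read -1.14, -1.14, -1.22 and -1.44, with replicate 4 the lowest. These 4 probes were detected on every array. The fifth, A_44_P1111915, was detected on none, with levels between -5.79 and -4.58. It is assigned to a predicted transcript, and A_44_P1162765 and A_43_P15222 are assigned to another predicted transcript. A_64_P127808 and A_44_P168159 are assigned to a transcript that is not a prediction, and their mean levels were -0.45 and -1.24. The mean over all 5 probes was -1.24.

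**Figure D3:**
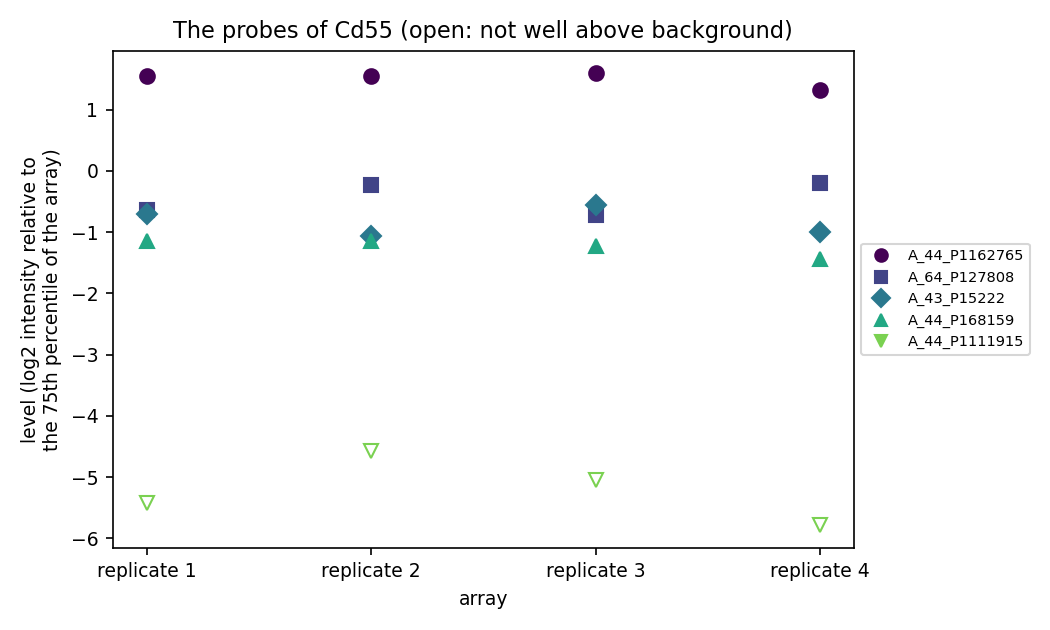
Level (vertical axis, log2 intensity relative to the 75th percentile of the array) of each Cd55 probe on the arrays of replicates 1 to 4, with open symbols where it was not well above background. A_44_P1111915 is open on all 4 arrays, and the remaining probes are filled.

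The median SD of the 5 detected genes was 0.126, within a range of 0.047 to 0.263, beside 0.165 for all 8424 detected genes, whose 5th to 95th percentile range was 0.060 to 0.411. The median over the 5 genes was 0.068 without replicate 4 and 0.368 with the array median as the scale. Among pairs of these genes, the root mean square difference of the centred levels was smallest for Cfp and Cd55, at 0.096. It was largest for Cfb and Serping1, at 0.299, and the neighbours C2 and Cfb came to 0.112. The measure is also small wherever both genes vary little, and Cfp and Cd55 were highest and lowest on different arrays.

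**Figure D4:**
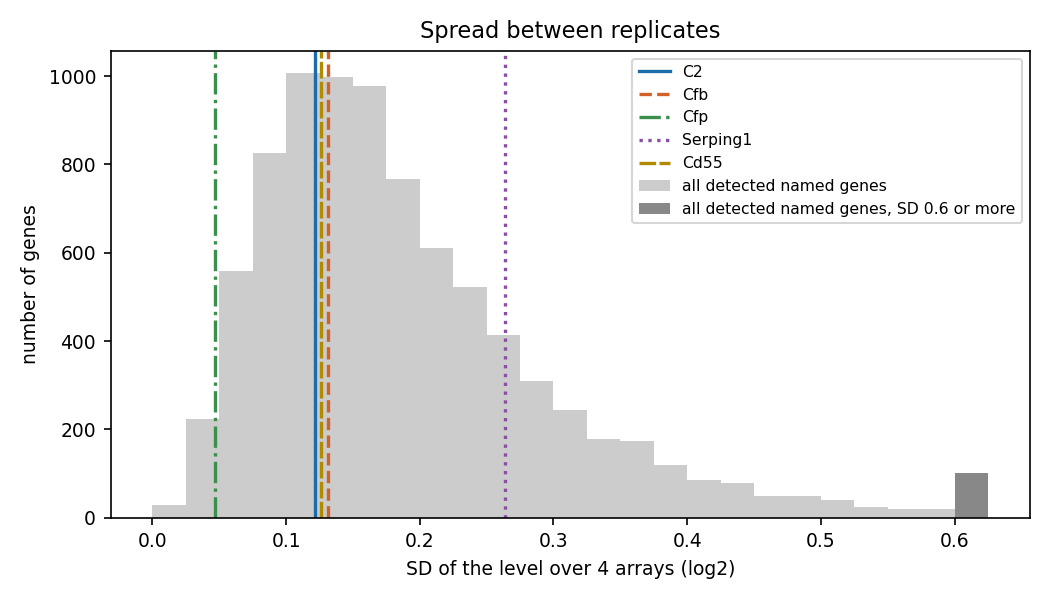
Number of detected named genes (vertical axis) by the SD of their level over the 4 arrays (horizontal axis, log2), with lines at the SD of the 5 complement genes detected on all arrays. Cfp lies at the left edge of the distribution at 0.047 and Serping1 to the right of its peak at 0.263, with C2, Cfb and Cd55 between them.

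Of 45 further complement genes listed by role, 40 had a named probe, and 15 of these (37.5%) were detected on all 4 arrays, against 50.8% of all named genes. The 15 were spread unevenly over the roles, at 9 of 11 receptors, 3 of 11 regulators, 3 of 12 initiators and proteases, and 0 of 6 later components. No test was made between the roles.

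Among the initiators and proteases, C1r, the protease bound to C1q, had a level of 0.55 ± 0.07 (SD, n = 4). Its partner C1s has 2 probes, which between them were detected on replicates 3 and 4. The one with the higher mean, at -4.47 ± 0.57 (SD, n = 4), was detected on 1 array only. Cfd, the protease that activates factor B, was detected on every array at 4.43 ± 0.13, so that the genes of factor B, factor D and properdin were all detected. Fcna, a ficolin of the lectin route, was detected at 0.71 ± 0.14 (SD, n = 4 for both), while its protease genes Masp1 and Masp2 were detected on 1 array and on none. The collectin genes Mbl1, Mbl2, Colec10 and Colec12 and the C1r-like gene C1rl were detected on no array, and Fcnb on 1. Colec11 had no named probe here.

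No later component was detected on all arrays. C6, a part of the membrane attack complex, was detected on 3, with levels of -2.45, -1.56, -4.93 and -1.59, and replicate 3 was the array that lacked it, as for C1qa. C4b was detected on 2 arrays and C8b on 1, and C4a, C8a and C9 were on none. C5, C7 and C8g had no named probe here.

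The regulators that were detected act in plasma and on membranes alike. Cfi, the plasma protease that inactivates C3b and C4b, had a level of -1.50 ± 0.35 (SD, n = 4). On the membrane, Cr1l, the rodent regulator also called Crry, had a level of 3.20 ± 0.07, and Cd59b, which blocks the membrane attack complex, one of 2.92 ± 0.12 (SD, n = 4 for both). With Cd55 this makes 3 membrane regulators detected on every array. Cd46 was detected on 2 arrays, as was Susd4, and Cpn1 on 1. C4bpa, C4bpb, Clu, Vtn and Cpb2 were detected on none.

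The receptors were the most complete role, and Itgam among them is also 1 of the 13 macrophage markers. C3ar1 and C5ar1, the receptors of the anaphylatoxins C3a and C5a, had levels of -1.73 ± 0.20 and 3.65 ± 0.27, and C5ar2, a second C5a receptor, 1.61 ± 0.07 (SD, n = 4 for all). For C3ar1 only 1 of its 2 probes was detected on every array. Vsig4, a macrophage receptor for C3 fragments, had levels of 4.33, 4.31, 4.37 and 4.37, which differed by a factor of at most 1.05. Itgam and Itgb2, the chains of complement receptor CR3, were at 2.48 ± 0.06 and 5.29 ± 0.18 (SD, n = 4 for both). C1qbp, Calr and Lrp1, whose products bind C1q or take part in the uptake of C1q-coated material besides other roles, were at 7.62 ± 0.15, 6.36 ± 0.18 and 0.95 ± 0.36 (SD, n = 4 for all). Cr2, the receptor of B cells, and Cd93 were detected on no array, and Itgax had no named probe.

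**Figure D5:**
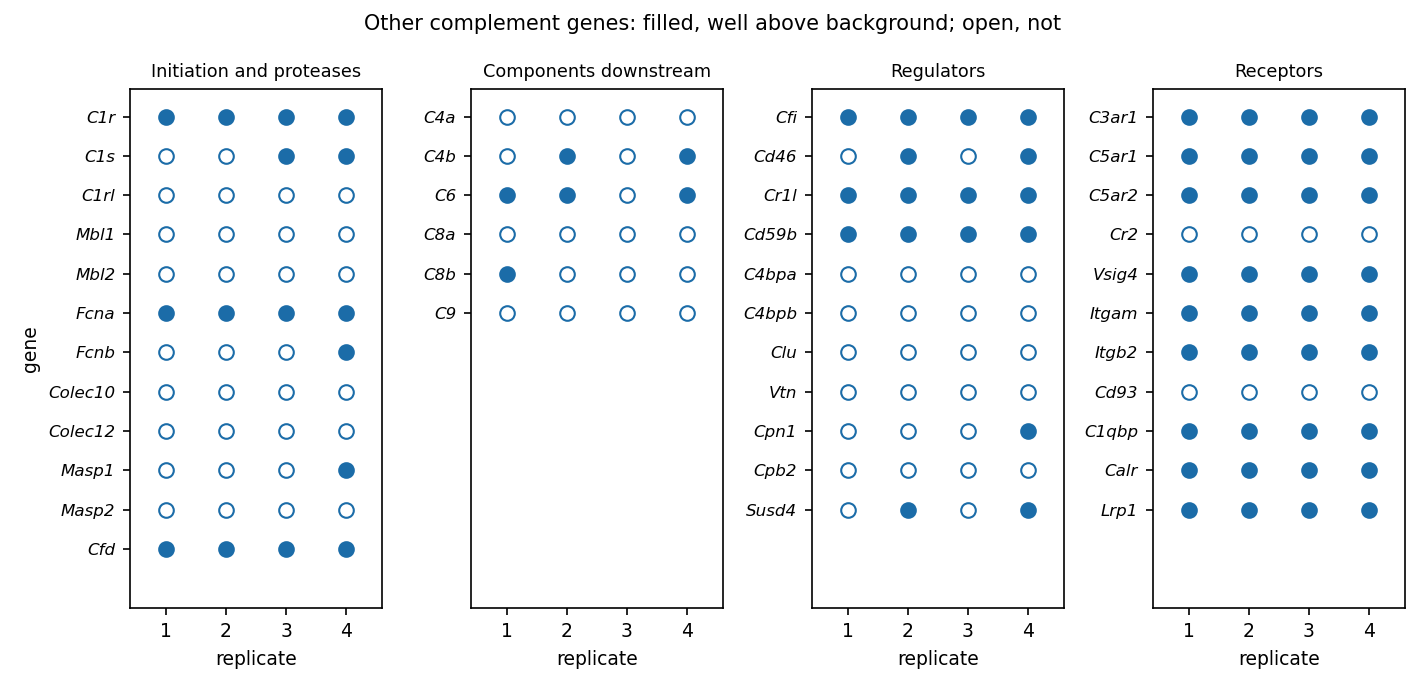
Detection of 40 further complement genes (rows, by role) on the arrays of replicates 1 to 4 (horizontal axis), with filled points where a gene was well above background. The receptor panel is filled for 9 of 11 genes, while no gene in the panel of later components is filled on all 4 arrays.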

How the data were processed

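Per the submitters' processing notes, the authors used Agilent Feature Extraction 11.0.1.1. The intensity of each spot was deposited unlogged, from 1 colour and without normalization between arrays, per the file headers. Probes were named by matching their transcript accession, without version, to the RefSeq genes of GRCr8, which named 21109 of 45598 probes. The array grid was built on another assembly, so the coordinates given are those of the RefSeq promoter table. Non-uniform spots and population outliers, as flagged by that software, were dropped, log2 processed signals were averaged per probe, and the 75th percentile of each array was subtracted. The F test used limma 3.58.1 in R 4.3.3, with the array as a factor and Benjamini-Hochberg adjustment over all 1350 probes at a threshold of 0.05. It was tried on simulated spots with independent normal noise and shifts on replicate 4 only. There 1.13% of 1150 unshifted probes passed, and 64% of 50 probes shifted by 0.25 log2. Effects of a whole array or region were not simulated, so the trial cannot speak to them. Other steps used Python 3.11.15, numpy 2.4.6, pandas 2.3.3 and matplotlib 3.10.9. All 9 genes are named with every probe, further complement genes by role, those detected on all arrays with values, and 3 genes most like the detected gene with the largest SD. One gene of the list as drawn up, beyond the 45 counted, is not reported here. The genes, lists and motifs were chosen with earlier results of these data known. Alternatives covered the detection call, flagged spots, bright regions of an array, probe choice, scaling, background correction and each replicate left out.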

Additional observations from a re-analysis of the deposited data

Results flagged for a closer look

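Of 29 sets of 4 array values that were checked for a single array far from the others, 1 was flagged, and chance flags about 1 in 20. The Cd55 probe A_44_P1162765 read 1.32 on replicate 4, against 1.55, 1.55 and 1.59 on replicates 1 to 3, so that the gap to the nearest array took up 0.835 of the whole range, above Dixon's limit at 95% for 4 values. Before scaling, its intensities were 291, 245, 305 and 316, highest on replicate 4. The 75th percentile that was subtracted stood at intensities of 99.4, 83.8, 101 and 127. Of the other detected Cd55 probes, A_44_P168159 was also lowest on replicate 4, A_43_P15222 was lowest on replicate 2, and A_64_P127808 was highest on replicate 4.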

How the results depend on the processing

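The count of 5 complement genes detected on all arrays became 8 with the less strict detection call and 6 when 3 arrays were enough, and without each replicate it ranged from 5 to 6. It was 4 when every probe had to be detected, which removed Cd55, and 5 with flagged spots kept or bright regions left out. For the other complement genes the count of 15 ranged from 14 to 20. Of all named genes, 61.7% passed with the less strict call, 54% when 3 arrays were enough and 45% when every probe had to be detected. The share was 51.3% with flagged spots kept, 47.9% with bright regions left out and 51.2% to 52.6% without each replicate. The median SD of 0.126 became 0.368 with the array median as the scale and 0.263 over all measured members, in a range of 0.068 (without replicate 4) to 0.145 without each replicate. The number of C1q probes that differed between arrays ranged from 0 to 2 without each replicate, with 0 reached without replicate 3, and was 2 under each of the other 5 settings. Of all 1350 probes tested, 65.9% passed without replicate 3 and 69.1% to 76.4% without each other replicate. Under the other settings 75.2% to 94.4% passed. All alternatives of this test, each replicate left out included, were chosen after seeing the data. Scaling to the array median, or to the 75th percentile of detected probes, moved the levels of all 9 genes by more than their SD, since both change the zero point for every gene, while quantile normalization moved none. Of the 31 complement spots, 4 lay in regions bright on some array, 2 each of C1qa and C1qb. Normexp was run on the median signals, chosen after seeing the data, in place of the planned mean signals, which were not used here, and it moved 8 of the 9 levels by more than their SD. No paired analysis was possible because there is 1 group.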
